A study of Mus musculus with 6 samples.

Results

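The genes described here encode the protein core of the machinery that splices messenger RNA, together with 2 large families of RNA-binding proteins that steer it. Membership rests on name alone, by the mouse symbols of the transcripts in the expression table. The choice was made with earlier results of these data known. The rule took every symbol that starts with Snrp, Sf3a, Sf3b, Srsf, Prpf, Hnrnp or with Lsm and a digit, plus Sf1, U2af1 and U2af2. The rule found 82 genes among the 25108 genes with a symbol, and 55 of the 82 had an adjusted p-value, against 11035 genes in all. Of the other 27, 15 had every transcript listed at 0 and 12 had a low base mean and no adjusted p. The 82 genes are grouped below by role.

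The cells were primary epidermal keratinocytes of wild type C57BL/6 mice, taken from the skin of pups between postnatal days 1 and 3 and grown at 0.05 mM calcium, which keeps such cells dividing and poorly differentiated. One group (3 libraries) received a control small RNA, miR-Control, and the other (3 libraries) received pro-miR-148a, a transfected form of the microRNA miR-148a; the dose was 200 nM and RNA was taken after 48 h. The labels do not say whether the 3 libraries of a group came from separate cultures or litters, so the p-values may measure technical spread. The titles of 2 of the 3 miR-148a libraries share the number 1 ahead of their replicate number, and what that number marks is not stated. The design asks which transcripts differ after transfection of miR-148a. In such bulk RNA, fewer cells of a type and less RNA per cell cannot be told apart.

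As background, an intron is removed by the spliceosome, which assembles on each pre-mRNA from small nuclear ribonucleoproteins (snRNPs). Each snRNP is an RNA in a ring of Sm or Lsm proteins with a few proteins of its own; SF1, U2AF and the SF3A and SF3B complexes recognise the branch site and the end of the intron, and Prpf proteins build and activate the catalytic core. SR proteins mostly promote the use of exons they bind and hnRNP proteins often oppose it, and many genes of both families limit themselves through an alternative exon that sends the transcript to nonsense-mediated decay.

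The microRNA is shown because its seed, bases 2 to 8 (in capitals), defines the sites searched for in the members. It is the RefSeq mature sequence, encoded on GRCm38.p6 at chr6:51269829-51269850, minus strand.
mmu-miR-148a-3p: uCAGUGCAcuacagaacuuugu

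A target matches the seed where it reads TGCACTG, called a 7mer-m8 site, and an added A makes TGCACTGA, the 8mer. The longest annotated 3' UTR (GENCODE M21) of only 2 of the 55 tested members held TGCACTG (3.64%), against 1451 of 9871 tested genes with a UTR (14.7%). Srsf11 and Hnrnpd, which had no adjusted p, also held a site. No tested member held the 8mer, which was present in 406 tested genes (4.11%). The UTRs of members were short: tested members with neither site had a median of 695 bases, tested genes with neither 976, and tested genes with either 2373. The sites of the members that carry one in a tested gene, and the single 8mer among all 82 members, are shown with the site in capitals.
Lsm11, base 4005 of a UTR of 5344: gtgtttctgttTGCACTGtttctgtgaca
Hnrnpr, base 1088 of a UTR of 19419: gtgatgtcattTGCACTGtgaactaaagt
Hnrnpr, base 3433 of the same UTR: tatagaaagacTGCACTGgacctagaaat
Srsf11, base 354 of a UTR of 1536: catgtagggaaTGCACTGAttgcatgttac

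Which group is the numerator of the log2 fold changes is left unsaid by the authors' deposited table, so a direction has to be read. Its title puts control before miR-148a. As deposited, the 406 genes with an 8mer had a median of 0.11 and the 7771 genes with no site a median of -0.01, and microRNAs lower the transcripts they pair with. The values are therefore read as control over miR-148a and their sign is turned, so that "higher" and positive values mean higher with miR-148a. Values given from the authors' deposited table "as turned" carry the opposite sign in the table itself. All directions below rest on this reading and would turn together; counts, sizes and errors would not change. Nothing about targets of miR-148a is supported by it.

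The table holds no value per library. A measurement here is the authors' base mean (the mean normalized count over the libraries, not divided by transcript length, so it gives the depth behind a value and no ranking of genes), their log2 fold change with its standard error (SE), and their adjusted p, read at 0.05. The authors' deposited table gives Krt5, the keratin of basal keratinocytes, the highest base mean of all genes, 630448, and 10 of 11 keratinocyte markers were tested; Trp63, a transcription factor of the lineage with many transcripts, was listed at 0. Of these 10 markers 2 were higher and 3 lower, the median log2 fold change being -0.17: Krt5 (0.49) and Krt15 (1.64) were higher, and Dsp (-0.18), Krt1 (-1.32) and Krt10 (-0.88), the last 2 being keratins of differentiating cells, were lower, as log2 fold changes in that table as turned. The basal integrin genes Itga6 (-0.47) and Itgb4 (-0.36), both at low base means, were among the 5 that did not pass. All 8 fibroblast markers were also tested, with base means up to 11119 for Col1a1, and 5 of them were lower with miR-148a (log2 fold changes of the 8 from -0.85 to -0.13 in the authors' deposited table as turned). For immune cells only Lyz2 and C1qa, at base means of 43.8 and 19.4, were tested, and both were lower, and the erythroid and muscle markers had no tested gene. Of 6 melanocyte markers 4 were tested and 1 was lower, of 4 endothelial markers 1 was tested and lower, and of 4 Merkel and nerve markers 2 were tested and neither passed. The part of other cells in the values below was not tested.

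Many spliceosome genes were slightly higher with miR-148a. Of the 55 tested members, 19 were higher (34.5%), 4 were lower (7.27%) and 32 did not pass the test. Over all tested genes 16.7% were higher and 16.8% lower. The median log2 fold change of the 55 was 0.17, against -0.01 over all tested genes. Values above 0 were found for 37 of the 55, against 5397 of all 11035 tested genes. The changes were small: 3 members were higher by a log2 fold change of 0.5 or more, namely Lsm5, Snrpc and Snrpb (7.29% of all tested genes), and 1 was lower by as much (10.5% of all). No member passed with more than a 2-fold change in either direction, against 2.31% of all tested genes higher and 4.49% lower by that much.

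**Figure D1:**
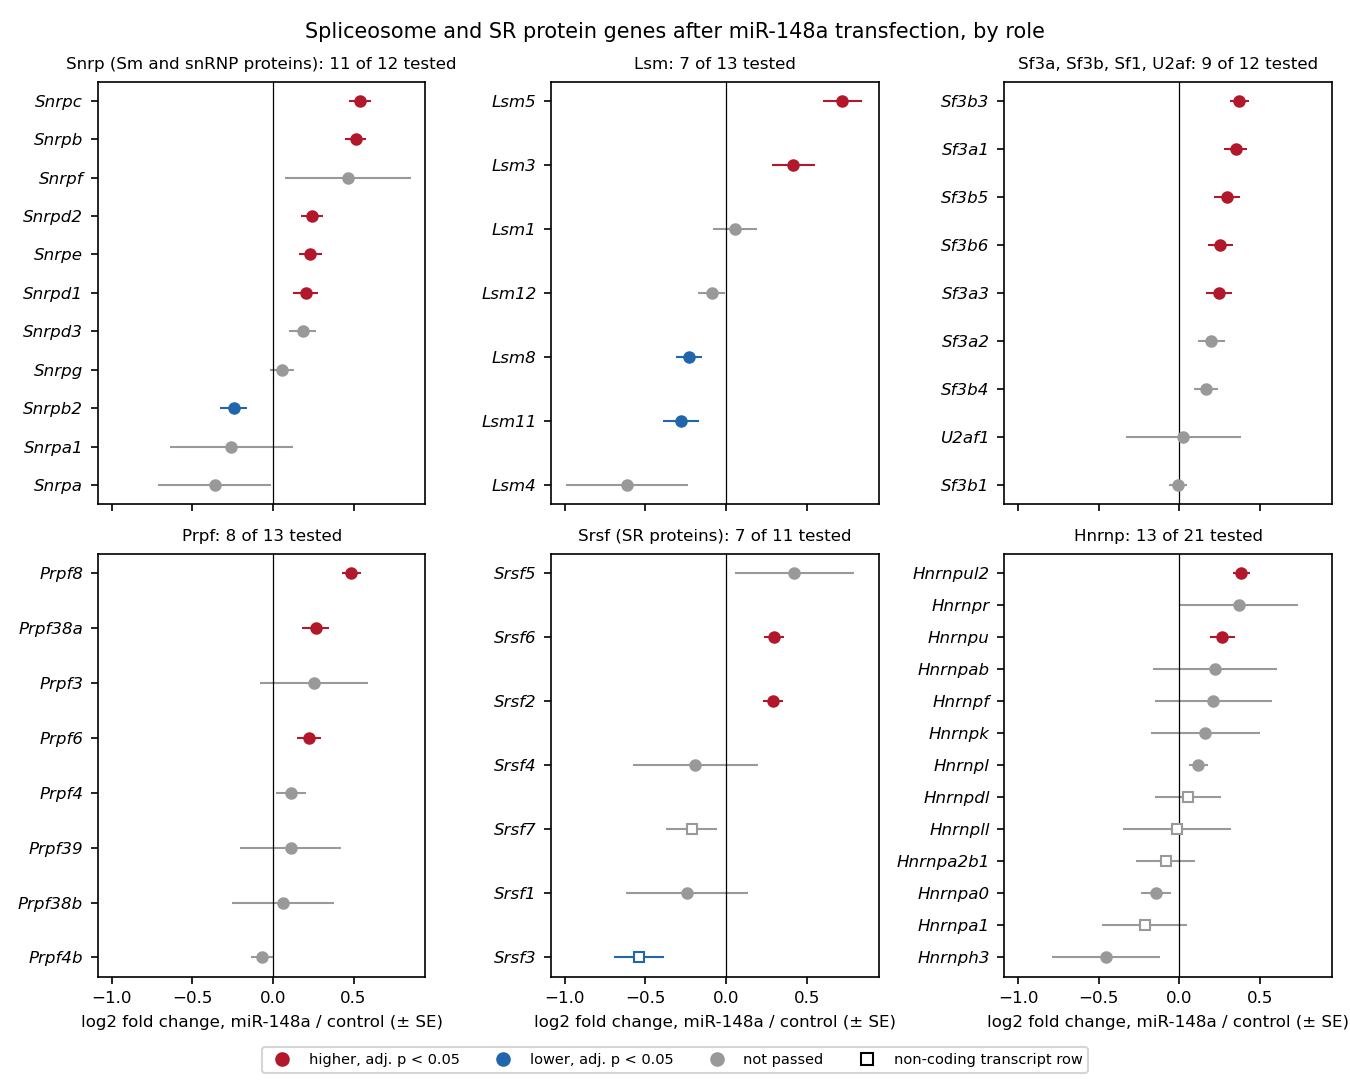
Log2 fold change (miR-148a over control, in the reading described) with its standard error for the 55 tested members, in 6 panels by role. Red points passed as higher, blue as lower and grey did not pass, and open squares are rows of non-coding transcripts; values run from -0.61 for Lsm4 to 0.72 for Lsm5.

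The counts behind a member differed with the number of its transcripts in the table. All 34 members with 1 transcript had counts, with a median base mean of 2603, whereas 160 of the 200 transcripts of the 48 members with 2 or more were listed at 0 (80.0%; 73.9% over all genes with 2 or more). Of the 33 tested members with 1 transcript, 18 were higher and 3 lower, against 19.7% and 19.4% of all tested genes of that kind. Of the 22 tested members with 2 or more transcripts, 1 was higher and 1 lower, against 6.77% and 7.92%. For these 48 genes a value describes 1 transcript and can differ from the rest of the gene, and a listing at 0 is no measure of absence: Sf1, U2af2, Sf3b2, Hnrnpc, Hnrnpd, Hnrnpm and Hnrnpa3, genes that dividing cells use, were all listed at 0. The sources used here do not give how reads shared by several transcripts were counted.

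**Figure D2:**
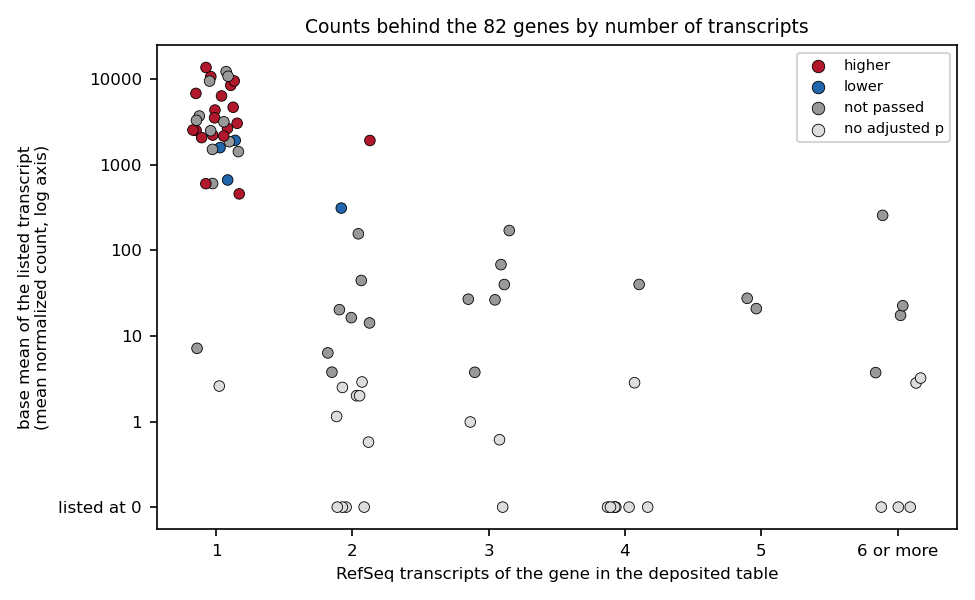
Base mean of the listed transcript (mean normalized count, log axis, with 15 genes listed at 0 drawn at the bottom) for the 82 members, by the number of RefSeq transcripts of the gene in the table. The members with 1 transcript lie mostly above 1000, and those with more lie mostly under 100 or at 0; points are spread sideways for visibility only.

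The share of genes that passed was larger at greater depth, so the members were also set beside genes counted as deeply. At a base mean of 1000 or more, 17 of 29 members were higher (58.6%) and 2 lower (6.90%), against 31.7% and 24.1% of the 3566 genes at that depth. The median log2 fold change of the 29 was 0.23 and that of the 3566 genes 0.05. The middle of the distribution was narrow: the quartiles of the 29 members were 0.11 and 0.29, and those of the 3566 genes -0.17 and 0.24. No member at a base mean under 100 passed, where the median SE was 0.36, against 0.07 at 1000 or more.

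**Figure D3:**
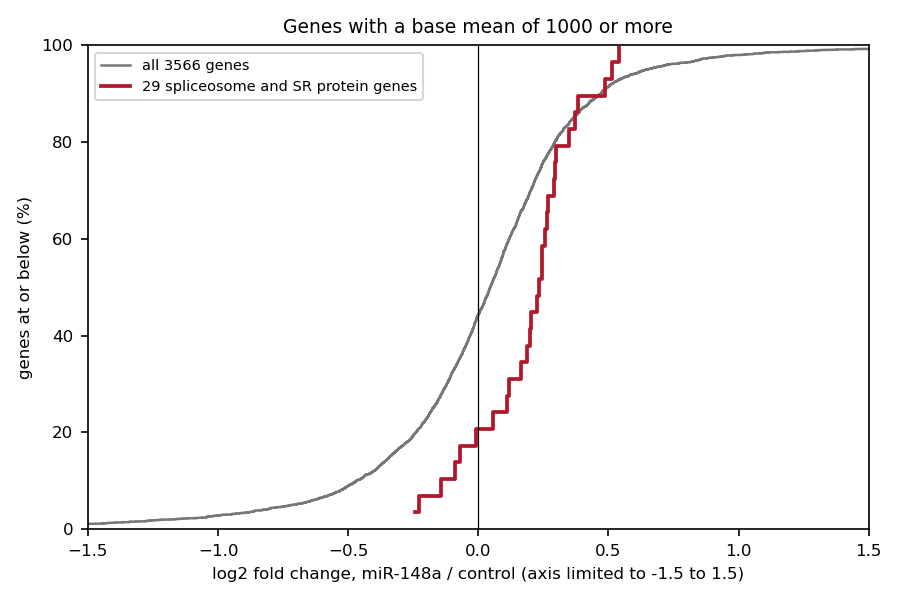
Cumulative share (%) of genes by log2 fold change (miR-148a over control, in the reading described) at a base mean of 1000 or more. The 29 members (red) lie to the right of all 3566 genes (grey) over the lower part of the range, with medians of 0.23 and 0.05, and the curves cross above it; the members run from -0.24 to 0.54.

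The Sm proteins form the ring around the RNAs of most snRNPs. All 7 ring genes had values above 0 once turned (below 0 as deposited). So did 5397 of all 11035 tested genes, and 1984 of the 3566 with a base mean of 1000 or more. Of the ring genes, 4 passed as higher (57.1%, against 16.7% of all tested genes and 31.7% at a base mean of 1000 or more). Snrpb, which encodes SmB, was 1.43-fold higher (NM_009225, base mean 8474) in the authors' deposited table as turned, at 0.51 ± 0.07 on the log2 scale (adjusted p = 2.1e-13). Snrpd2, Snrpe and Snrpd1, the genes of SmD2, SmE and SmD1, were higher by 0.24 ± 0.07, 0.23 ± 0.07 and 0.20 ± 0.08 (log2, SE) in the same table as turned. Snrpd3 lay just outside the threshold, at 0.19 ± 0.08 with an adjusted p of 0.0758 in the authors' deposited table as turned. Snrpg had 0.06 ± 0.07 (95% interval -0.08 to 0.20), so its interval does not reach the value of Snrpb. Snrpf, at a base mean of only 7.17, had 0.46 ± 0.39 in the authors' deposited table as turned and cannot be placed.

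The proteins that belong to a single snRNP did not follow the ring as a block. Snrpc, which encodes protein C of the U1 snRNP and helps to bind the start of the intron, was 1.45-fold higher (0.54 ± 0.07 SE, adjusted p = 4.44e-13, NM_011432, base mean 2522, authors' deposited table as turned). Snrpb2, a gene of a U2 snRNP protein, was instead 1.18-fold lower (-0.24 ± 0.08 SE, adjusted p = 0.0127, NM_021335, base mean 1587, authors' deposited table as turned). Snrpa, of the U1 snRNP, and Snrpa1, of the U2 snRNP, had -0.36 ± 0.35 and -0.26 ± 0.38 in the authors' deposited table as turned, at base means of 26.9 and 20.3, and neither passed. Snrpn, the imprinted relative of Snrpb, has 9 transcripts in the table, all listed at 0.

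The Lsm genes split in both directions. Lsm2 to Lsm8 form the ring that holds U6 RNA, and Lsm1 replaces Lsm8 in the cytoplasmic ring that promotes decay of mRNA. Lsm5 had the highest value of all 55 tested members, 1.65-fold higher (0.72 ± 0.12 SE, adjusted p = 5.01e-08, NM_025520, base mean 457, authors' deposited table as turned). Lsm3 was 1.33-fold higher (0.42 ± 0.13 SE, adjusted p = 0.0073, authors' deposited table as turned). Lsm8, which makes the ring specific to the nucleus, was 1.17-fold lower (-0.23 ± 0.08 SE, adjusted p = 0.0174, base mean 1928, authors' deposited table as turned). Lsm1 did not pass, with 0.05 ± 0.14 in the authors' deposited table as turned (95% interval -0.21 to 0.32). Exons of Lsm3 overlap a further annotated gene on the same strand.

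Lsm11 serves the U7 snRNP, which cuts the ends of histone mRNAs and takes no part in splicing. It was 1.21-fold lower (-0.28 ± 0.11 SE, adjusted p = 0.0437, NM_028185, authors' deposited table as turned), the called member nearest to the threshold, and its site TGCACTG is printed above. The call was lost in 2 of 3 alternatives. The adjusted p was 0.0521 after recentring all fold changes on their median and 0.0663 when adjusted over all transcripts. The other alternative, the transcript with the lowest adjusted p, could not change the call, because Lsm11 has only 1 transcript. Its partner Lsm10 had no adjusted p. Hnrnpr, the other tested member with the site, had 0.37 ± 0.37 in the authors' deposited table as turned and was not called. Lsm12, a member of the family without a place in either ring, had -0.09 ± 0.08 in the authors' deposited table as turned. Of the ring genes, Lsm4 had -0.61 ± 0.38 at a base mean of 6.33 and did not pass, Lsm2 and Lsm6 had no adjusted p, and Lsm7 was listed at 0, as was Lsm14a. Lsm14b had no adjusted p.

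The branch site is held by SF3A and SF3B, which are parts of the U2 snRNP. In this group 5 of 9 tested genes were higher and none was lower, against 16.7% and 16.8% of all tested genes, or 31.7% and 24.1% of those with a base mean of 1000 or more. Sf3b3 was 1.29-fold higher (0.37 ± 0.06 SE, adjusted p = 3.58e-09, NM_133953, base mean 6825) and Sf3a1 1.27-fold higher (0.35 ± 0.07 SE, adjusted p = 5.82e-06, NM_026175) in the authors' deposited table as turned. Sf3b5, Sf3b6 and Sf3a3, the genes of smaller subunits and of a further SF3A subunit, were higher by 0.29 ± 0.08, 0.25 ± 0.08 and 0.24 ± 0.08 (log2, SE) in the same table as turned. Exons of Sf3b3 overlap Cog4 on the opposite strand and 2 snoRNA genes on the same strand. Sf3a2 and Sf3b4 were above 0 but did not pass, with 0.20 ± 0.09 (adjusted p = 0.0621) and 0.17 ± 0.08 (adjusted p = 0.088) in the authors' deposited table as turned.

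Sf3b1, the scaffold of SF3B and the subunit that is often mutated in human leukaemias, had -0.01 ± 0.06 in the authors' deposited table as turned at a base mean of 12259. Its 95% interval, -0.12 to 0.10, lies below that of Sf3b3 (0.26 to 0.49). U2af1, the small U2AF subunit that reads the AG at the end of the intron, had 0.02 ± 0.36 in its listed transcript, at a base mean of 26.4. Sf1, which binds the branch site first, U2af2, which binds the pyrimidine tract, and Sf3b2 could not be compared.

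Among the Prpf genes 3 of 8 tested were higher (37.5%) and none was lower, against 16.7% and 16.8% of all tested genes. Of all genes with a base mean of 1000 or more, as the 3 had, 31.7% were higher and 24.1% lower. The 37.5% is not matched to that depth, because it also counts Prpf3, Prpf38b and Prpf39, which had low base means. At that depth the only other tested Prpf genes were Prpf4 and Prpf4b, which did not pass. Prpf8, the largest protein of the catalytic core and a part of the U5 snRNP, was 1.40-fold higher (0.49 ± 0.06 SE, adjusted p = 3.69e-15, NM_138659, base mean 10722), the smallest adjusted p among the members in the authors' deposited table as turned. Prpf38a, needed to activate the assembled spliceosome, was higher (0.27 ± 0.08 SE, adjusted p = 0.00609), and Prpf6, which bridges the U5 and U4/U6 snRNPs, 1.17-fold higher (0.22 ± 0.07 SE, adjusted p = 0.00929), both in the authors' deposited table as turned. Prpf4, of the U4/U6 snRNP, had 0.11 ± 0.09 and the kinase gene Prpf4b -0.07 ± 0.07 in the authors' deposited table as turned; neither passed. Prpf3, Prpf38b and Prpf39 did not pass at base means of 3.76 to 44.5. Prpf19, Prpf31 and Prpf40b had no adjusted p, and Prpf18 was listed at 0.

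SR protein genes gave values of differing kinds. The coding transcripts of Srsf2 (SC35), 1.22-fold higher (0.29 ± 0.06 SE, adjusted p = 3.56e-05, base mean 9546), and Srsf6, 1.23-fold higher (0.30 ± 0.06 SE, adjusted p = 7.14e-06, base mean 6374), passed in the authors' deposited table as turned. Exons of Srsf2 overlap those of Mfsd11 and Mettl23 on the opposite strand, and the sources used here do not give whether reads were counted by strand. The row of Srsf3 is not its coding mRNA: NR_036613, which GENCODE classes as subject to nonsense-mediated decay, was 1.45-fold lower (-0.54 ± 0.16 SE, adjusted p = 0.00268, base mean 312, authors' deposited table as turned). The coding transcript of Srsf3 was listed at 0, so the share of the decay form cannot be given. The listed transcript of Srsf7, NR_036615, is of the same class and had -0.21 ± 0.16 in the authors' deposited table as turned (95% interval -0.52 to 0.09).

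The remaining SR protein genes had few counts. Srsf1, Srsf4 and Srsf5, at base means of 16.4 to 20.9, did not pass, and their log2 fold changes ran from -0.24 to 0.42 in the authors' deposited table as turned with SEs of 0.37 to 0.39. Srsf9 and Srsf11 had no adjusted p, and Srsf10 and Srsf12 were listed at 0. For 9 of the 11 SR protein genes the table therefore gives no precise value of a coding mRNA.

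Of 13 tested hnRNP genes 2 were higher (15.4%), a share near the 16.7% of all tested genes, and none was lower (16.8% of all). Those shares are not matched in depth: the median base mean was 68.1 for the 13 and 228 for all tested genes. At a base mean of 1000 or more, Hnrnpul2 and Hnrnpu were higher and Hnrnpl and Hnrnpa0 did not pass. Of all genes at that depth 31.7% were higher. Hnrnpul2, a nuclear protein of the hnRNP U family, was 1.31-fold higher (0.38 ± 0.05 SE, adjusted p = 4.55e-12, NM_001081196, base mean 13709, authors' deposited table as turned). Hnrnpu, which also scaffolds chromatin, was higher in its coding transcript (0.27 ± 0.08 SE, adjusted p = 0.00261, NM_016805, base mean 1922, authors' deposited table as turned). Its non-coding transcript NR_149827 had 0.07 ± 0.13 and did not pass. Exons of Hnrnpu overlap Cox20 on the opposite strand, and exons of Hnrnpul2 overlap a further annotated gene on the same strand.

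The well counted hnRNP genes that did not pass were Hnrnpl, a regulator that binds CA repeats, with 0.12 ± 0.06 (adjusted p = 0.0994), and Hnrnpa0, with -0.14 ± 0.09 (adjusted p = 0.271), in the authors' deposited table as turned. Hnrnpa1 and Hnrnpa2b1, classic antagonists of SR proteins, were each listed by a decay-class transcript that did not pass: NR_104427 had -0.22 ± 0.26 and NR_104468 had -0.09 ± 0.18 in the authors' deposited table as turned. A coding transcript of each was also tested, with 0.38 ± 0.33 for Hnrnpa1 and 0.25 ± 0.38 for Hnrnpa2b1 in the authors' deposited table as turned, and these did not pass either. The other 7 tested hnRNP genes, Hnrnpab, Hnrnpdl, Hnrnpf, Hnrnph3, Hnrnpk, Hnrnpll and Hnrnpr, did not pass at base means of 3.73 to 156. Hnrnph1, Hnrnpul1 and Hnrnpa1l2-ps2 had no adjusted p, and Hnrnpa3, Hnrnpc, Hnrnpd, Hnrnph2 and Hnrnpm were listed at 0.

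Promoters were searched as a description only, for motifs chosen after values were seen, and a shared cause of the changes was not tested. RefSeq promoters (GRCm38.p6, from 250 bases before to 50 bases after a gene's start) were held for 70 members, 93 promoters in all, and were searched on both strands for CCGGAAG, the core of an ETS-family motif, for the YY1 motif AAGATGGC, the palindromic motif of NRF1, the E-box CACGTG, the CCAAT box and the E2F motif TTCCCGCC. The ETS core was in 26 of the 93 (28.0%), against 16.5% of 10124 promoters of tested genes and 8.86% of all 32851 promoters. Of the 15 higher members with a promoter 8 held it, as did 1 of 4 lower members and 8 of 27 that did not pass. By genes, 1571 of 8545 tested genes with a promoter held the ETS core. The share among all higher genes was not computed, so a link of the core to direction was not tested. The E2F motif was in 10.8% of member promoters and 3.97% of those of tested genes, but in none of the 15 higher members. For YY1 the shares were 5.38% and 4.17%, for NRF1 1.08% and 1.76%, for the E-box 11.8% and 9.83%, and for CCAAT 48.4% and 37.4%. No overlap between these motifs was removed. A match is a description of these letters and shows no binding.

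Windows around the ETS core (in capitals, as CCGGAAG or its reverse complement CTTCCGG) are shown for 5 of the 8 higher members that held it. They are read along the gene, with the position of the first base of the core. Base 1 is the start of the gene and negative positions lie before it. The core was not particular to higher members: Snrpb2, which was lower, held it at positions -28 and -9 (not shown).
Snrpc, position -39, chr17:27840038-27840064, plus strand: agggcagaggCCGGAAGcggaagtcct
Sf3a1, position -7, chr11:4160337-4160363, plus strand: gagggcgggaCCGGAAGtgctcccgcg
Sf3b6, position -70, chr12:4817528-4817554, plus strand: ggtccgcaatCCGGAAGcgttctggag
Snrpe, position 7, chr1:133610258-133610284, minus strand: ggtcttgcttCCGGAAGtcgctttccg
Lsm5, position 18, chr6:56704666-56704692, minus strand: tccttagccaCTTCCGGcgtggccatg

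Other splicing genes were read from a list of 146, of which 102 were tested. Here 24 were higher (23.5%; 16.7% of all tested genes), 9 lower (8.82%; 16.8% of all) and 69 did not pass, with a median log2 fold change of 0.05. The counts by group below are small and are to be read against those shares. At a base mean of 1000 or more, 22 of 55 were higher and 8 lower (40.0% and 14.5%, against 31.7% and 24.1% of all genes at that depth), with a median of 0.13. Proteins of the Prpf19 complex and the activated spliceosome held 9 higher and 1 lower among 22. Ppil1, a prolyl isomerase there, was 1.66-fold higher (0.73 ± 0.11 SE), and Cwc15 had 0.44 ± 0.08, whereas Syf2 was lower at -0.43 ± 0.07, in the authors' deposited table as turned. Among proteins of the U1, U5, U4/U6 and minor snRNPs 5 of 15 were higher and 1 lower. Snrnp200, the helicase that unwinds U4 from U6 beside Prpf8, was 1.41-fold higher (0.50 ± 0.06 SE, adjusted p = 2.33e-14), Luc7l2 had 0.76 ± 0.18, and Snrnp48 of the minor spliceosome was lower at -0.48 ± 0.09 in the authors' deposited table as turned.

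Further U2 factors held 2 higher of 13 (15.4%, near the 16.7% of all tested genes) and none lower: Ddx46, a helicase that acts on the branch site, with 0.34 ± 0.06, and Phf5a, an SF3B subunit, with 0.24 ± 0.08 in the authors' deposited table as turned. Of 6 tested kinases of SR proteins, a part of the 16 genes counted below, 2 were lower (16.8% of all tested genes) and 4 did not pass. Srpk1, which phosphorylates SR proteins in the cytoplasm, was 1.43-fold lower (-0.52 ± 0.07 SE, adjusted p = 9.31e-12, base mean 4732), and the nuclear kinase gene Clk1 was 1.47-fold lower in its listed, non-coding transcript (-0.55 ± 0.13 SE, adjusted p = 6.17e-05, authors' deposited table as turned). Clk3, Clk4, Dyrk1a and Srpk2 had log2 fold changes from -0.06 to 0.40 in the authors' deposited table as turned. With SR-related proteins, 3 of 16 tested genes were lower (18.8%, near the 16.8% of all tested genes) and 1 was higher, Pnn, at 0.35 ± 0.06 in the authors' deposited table as turned.

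**Figure D4:**
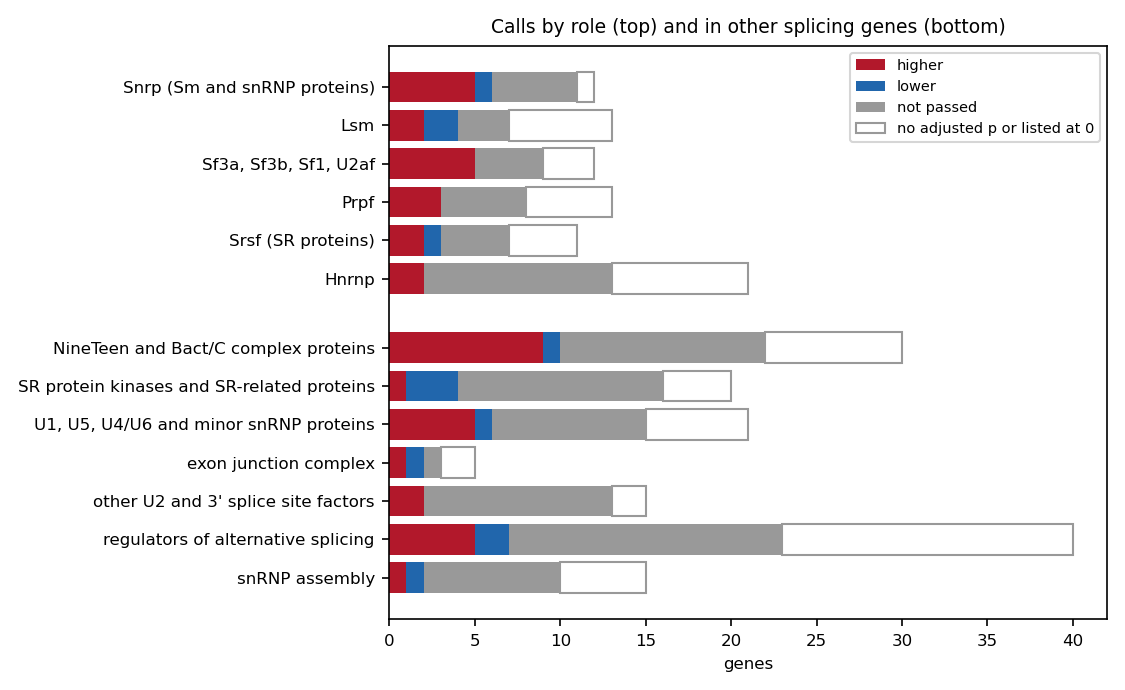
Number of genes per group that were higher (red), lower (blue), did not pass (grey) or had no adjusted p or were listed at 0 (white), for the 82 members by role (top 6 bars) and for 146 other splicing genes (bottom 7 bars). The group of SF3A, SF3B, SF1 and U2AF genes holds 5 higher and none lower of 9 tested.

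Assembly factors of the snRNPs held, among 10 tested, 1 higher, Clns1a, which delivers Sm proteins, at 0.44 ± 0.07, and 1 lower, Tgs1, which modifies the cap of snRNAs, at -0.41 ± 0.09, in the authors' deposited table as turned. Of the exon junction complex Eif4a3 was higher (0.28 ± 0.07) and Casc3 lower (-0.21 ± 0.08) in the authors' deposited table as turned. Regulators of alternative splicing held 5 higher and 2 lower among 23 (21.7% and 8.70%, against 16.7% and 16.8% of all tested genes). Dhx9, an RNA helicase, was 1.56-fold higher (0.64 ± 0.07 SE) and Khsrp had 0.32 ± 0.07, whereas Qk, which regulates exons in many tissues, was lower at -0.35 ± 0.06 and Taf15 at -0.21 ± 0.08, in the authors' deposited table as turned. Esrp2, the splicing regulator typical of epithelia, had -0.09 ± 0.06 and did not pass.

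Most tested genes of the dividing cell were higher too, and by more. Of 22 tested proliferation genes 19 were higher and none was lower, against 16.7% and 16.8% of all tested genes. At a base mean of 1000 or more the shares of all genes were 31.7% and 24.1%. The median log2 fold change of the 22 was 0.68 in the authors' deposited table as turned. The part of these genes in the values of the splicing genes was not tested. In the authors' deposited table of GO categories, 15 of 42 genes of splicing through the spliceosome counted as changed, with an over-representation p of 0.00506 and an adjusted p of 0.535. That category was ranked 9th of 951 by this p, and 5 categories passed at an adjusted p of 0.05. The table gives no direction, and the sources used here do not give which genes the authors counted as changed.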

How the data were processed

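RNA sequencing compared 3 control and 3 miR-148a libraries; groups came from the sample titles. The submitters' processing notes list DESeq2 and mm9; aligner, counter, annotation and versions were not given in the sources. The authors' table holds, per the file headers, a base mean (signal, the mean of normalized counts), a log2 fold change and its standard error on the log2 scale, a Wald score (their quotient), and p-values with adjusted p-values. The authors' second table gives p-values per GO category. No file holds values per library, so depth per library is unknown, no test on libraries could be run, and the authors' adjusted p at 0.05 was used; p-values were recomputed from the deposited values only in the alternatives.

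Symbols were matched by RefSeq accession (42734 of 42885 transcripts, GRCm38.p6), and each gene was represented by its transcript with the highest base mean. Transcripts with a base mean up to 3.56 and a fold change had no adjusted p. Intervals (95%) are 1.96 SE wide on each side. Build mm9 differs from the annotation, so coordinates are printed only with RefSeq sequences. UTRs of at least 20 bases were searched. Values of 1 member are not reported here.

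The members and lists were chosen with earlier results of these data known. The rule for named genes took, per role, up to 4 called members per direction by size of change and the 2 with the highest base mean, Sf1, U2af1 and U2af2, and in the other splicing genes up to 2 per direction and group at a base mean of at least 100. The other genes named, and the motifs searched, were chosen after values were seen. A recentred Wald test with Benjamini-Hochberg adjustment was tested on simulated data. Python 3.11.15, pandas 2.3.3, numpy 2.4.6, scipy 1.17.1 and matplotlib 3.10.9 were used.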

Additional observations from a re-analysis of the deposited data

How the results depend on the processing

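Alternatives were the transcript with the lowest adjusted p, every tested transcript, a base mean of at least 100, fold changes recentred on the median of all tested genes (-0.01), an adjusted p at 0.01, an adjustment over all transcripts with a p-value, and rows of coding transcripts only; added after seeing the data were genes with 1 transcript only and genes without exon overlap. The number of members higher ranged from 18 to 20 against 19, and the number lower from 3 to 4 against 4. The exception was an adjusted p of 0.01. There only 1 member, Srsf3 in its decay-class transcript, was lower (13.0% of all tested genes) and 18 were higher (13.1%). The range of members higher leaves out the setting without exon overlap, which gave 14. Overlaps were searched only for called members, so that setting could only remove calls and is no check of the counts. Likewise, a base mean of at least 100, coding rows only, genes with 1 transcript only and an adjusted p of 0.01 could only remove calls. No member under a base mean of 100 had passed, so the setting of at least 100 had to return the main counts of members. Every tested transcript could only add calls. The median of the members ranged from 0.11 to 0.23 against 0.17. For the other splicing genes the counts ranged from 21 to 26 higher and 6 to 12 lower, against 24 and 9. Among 25 named members with an adjusted p, under 3 alternatives each, 73 values kept their side of the threshold and 2 did not. Both were of Lsm11, whose adjusted p was 0.0521 after recentring and 0.0663 when adjusted over all transcripts. Of the 3 alternatives, the transcript with the lowest adjusted p could change only U2af1 and Hnrnpu. The other named members had 1 tested transcript, so for them it repeated the main value. Sf3b1 and U2af1, which did not pass, changed sign: Sf3b1 had 0.0013 after recentring, and U2af1 had -0.17 in its transcript with the lowest adjusted p. No paired analysis was possible because the deposited tables hold no columns per library, and for the same reason no library could be left out. Depth limits the 18 members tested at base means under 100, where the median SE was 0.36 and none passed.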
